A study of Arabidopsis thaliana with 60 samples.

Results

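Stems of wild type Arabidopsis thaliana (accession Col-0) were profiled by RNA sequencing as 2 separate sets of 3 samples, and set 2 was compared here with set 1. Both sets carry the wild type genotype, and the labels give both the same treatment: growth in 0.5x Noren medium for 9 to 10 weeks, RNA from stem tissue by a column kit and stranded mRNA libraries. Set 1 is the control of the HCT-RNAi and gpt2-1 lines, and set 2 is the control of the 35S GPT2 line, in which the strong 35S promoter drives the plastid sugar phosphate translocator GPT2. The 6 wild type samples were chosen by these labels out of the 15 samples of the study. The hour of harvest, stem handling, growth dates and plants per sample were not stated in those labels, so set, growth, harvest and library run cannot be told apart, and p-values measure only the spread between these samples.

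Plants anticipate dawn and dusk with a circadian clock in which morning genes (CCA1, LHY, PRR9) and evening genes (TOC1, GI, ELF4) repress each other in turn, so that their levels change over the day. Wounding, bending and touch raise calcium signals and the hormone jasmonate, which removes the JAZ repressors, and mRNAs of touch genes, zinc finger factors, ethylene response factors and WRKY factors are known to rise within minutes of cutting. Cold and drought induce dehydrins and related protective proteins, and strong light, sugar or low phosphate induce the anthocyanin pathway.

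Of 12650 genes tested, 3671 were higher (29%) and 3661 were lower (28.9%) in set 2 at an adjusted p under 0.05 in edgeR's quasi-likelihood test, 58% in all. The tested genes had no exon base under an exon of the opposite strand and a mean of at least 2 CPM, that is counts scaled to the library's total. By at least 2-fold, 1894 genes (15%) were higher and 2037 (16.1%) lower; by at least 16-fold, 69 (0.545%) were higher and 338 (2.67%) lower. For 68.3% of the genes tested the samples of the sets did not overlap. The median log2 difference, set 2 minus set 1, was 0.01 over all genes tested. Every count of list members below is to be read against these shares, because a list drawn from all genes tested would also hold many called members.

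Total counts were 16591700 to 24150608 in set 1 and 5258309, 14603171 and 31713084 in replicates 1 to 3 of set 2. Set 2 replicate 1 stood apart: on the first principal component it scored 128 against 62.1 and 70.4 for the other set 2 samples and -88.3 to -86.1 in set 1, and on the second 71.1 against -50.1 and -49.7. It held 249 genes with exactly 1 count, against 939 in a 35S GPT2 sample with fewer counts in the same genes (2803133 against 3908944), and set 2 replicate 3 held 311 at 23402022 counts, against 1072 to 1130 in set 1 at 12711985 to 18526050. A 0 in these libraries therefore need not mean a level below 1 count, and the bounds given below for genes with no count in set 2 rest on such zeros. Of the 3931 genes changed at least 2-fold, 3875 were tested without replicate 1, and all of those 3875 were called in the same direction. Both fits share the remaining samples, so this agreement is no independent check. The wild type tissue was checked by the summed level of markers of 9 cell types, of which 39 of 49 had no opposite-strand overlap and entered the sums. Xylem vessel markers summed to 306 to 332 CPM in set 1 and 303 to 369 CPM in set 2, cambium markers to 346 to 359 and 347 to 381 CPM, and phloem markers to 638 to 695 and 484 to 855 CPM. Epidermis markers were lower in set 2, at 2228 to 2753 against 3119 to 3303 CPM, and 6 of their 8 tested members fell, among them the homeobox gene ATML1 by 1.67 on the log2 scale. Guard cell markers were also lower in sum, at 40.2 to 49.2 against 57.0 to 59.5 CPM, though none of the 3 tested passed (2 were lower without set 2 replicate 1), and pollen markers were higher, at 19.2 to 23.9 against 12.4 to 18.6 CPM, with 1 of 2 tested called higher. Flower markers summed to 3.86 to 4.58 CPM in set 1 and 0 to 1.89 CPM in set 2, seed markers to at most 2.49 CPM, and the 1 root marker of 4 without overlap stood at no more than 0.227 CPM. In bulk tissue fewer cells of a type and less RNA per cell cannot be told apart, and the part of the epidermis, guard cell and pollen shifts in the other results was not tested.

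GPT2, the gene the study targets, stood at 2.02, 1.65 and 2.01 CPM in set 1 and at 8.94, 1.31 and 1.43 CPM in set 2. The sets overlap and only set 2 replicate 1 is high (log2 difference 0.82, SE 0.76, edgeR adjusted p = 0.39). HCT, an acyltransferase of lignin synthesis that another line of the study silences, stood at 514, 554 and 487 CPM in set 1 and 701, 601 and 597 CPM in set 2. Its log2 difference of 0.29 (SE 0.11) missed the threshold (edgeR adjusted p = 0.052); without set 2 replicate 2 or 3 it passed (adjusted p = 0.036 and 0.046).

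The promoters of 6 genes that the results turn on are shown first, because the letters of known clock, stress and cold motifs lie in them. Each sequence is the 250 bases before the gene start in RefSeq's TAIR10.1 annotation, 5′ to 3′ on the strand of the gene. Capitals in the first pair mark the evening element AAAATATCT on either strand, the letters through which clock repressors of the CCA1 family are known to bind evening genes. GRP7 lies on the minus strand (chr2:9266558-9266807) and TOC1 on the plus strand (chr5:24674713-24674962).
GRP7: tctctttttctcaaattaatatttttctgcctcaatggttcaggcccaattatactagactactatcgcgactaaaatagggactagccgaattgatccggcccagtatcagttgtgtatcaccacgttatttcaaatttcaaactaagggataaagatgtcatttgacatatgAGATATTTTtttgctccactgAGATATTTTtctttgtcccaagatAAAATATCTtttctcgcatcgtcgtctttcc
TOC1: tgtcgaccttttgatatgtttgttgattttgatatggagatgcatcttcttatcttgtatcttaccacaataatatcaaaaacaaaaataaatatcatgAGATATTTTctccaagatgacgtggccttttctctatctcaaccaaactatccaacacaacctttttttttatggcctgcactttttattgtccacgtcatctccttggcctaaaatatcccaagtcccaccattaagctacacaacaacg
Capitals in the next pair mark the rapid stress response element CGCGTT, or AACGCG on the other strand, which calcium-dependent CAMTA factors are known to bind. PHI-1 lies on the plus strand (chr1:12851733-12851982) and AT1G19210, an ERF-type factor, on the minus strand (chr1:6627689-6627938).
PHI-1: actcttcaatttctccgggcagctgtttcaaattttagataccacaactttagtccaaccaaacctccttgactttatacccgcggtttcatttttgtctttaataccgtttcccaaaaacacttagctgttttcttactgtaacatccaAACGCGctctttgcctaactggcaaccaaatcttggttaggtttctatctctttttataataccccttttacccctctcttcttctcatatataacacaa
AT1G19210: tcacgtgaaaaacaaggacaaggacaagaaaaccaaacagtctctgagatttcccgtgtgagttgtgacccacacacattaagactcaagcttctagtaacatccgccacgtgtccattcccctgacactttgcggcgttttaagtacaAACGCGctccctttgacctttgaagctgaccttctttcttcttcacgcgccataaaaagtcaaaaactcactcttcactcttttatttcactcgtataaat
Capitals in the last pair mark the core CCGAC of the dehydration responsive element, or GTCGG on the other strand. COR15A lies on the minus strand (chr2:17712331-17712580) and RD29A on the plus strand (chr5:21240467-21240716).
COR15A: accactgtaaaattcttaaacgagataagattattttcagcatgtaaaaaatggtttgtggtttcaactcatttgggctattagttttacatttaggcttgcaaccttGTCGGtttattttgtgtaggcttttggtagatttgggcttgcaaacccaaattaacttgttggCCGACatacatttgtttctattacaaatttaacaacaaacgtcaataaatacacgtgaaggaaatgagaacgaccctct
RD29A: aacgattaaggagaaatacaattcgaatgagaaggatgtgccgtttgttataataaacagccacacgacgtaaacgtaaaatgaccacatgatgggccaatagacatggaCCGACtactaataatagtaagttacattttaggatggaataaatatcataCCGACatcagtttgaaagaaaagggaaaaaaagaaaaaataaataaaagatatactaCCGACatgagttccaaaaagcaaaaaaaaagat
In GRP7 the 3 evening elements begin 76, 55 and 31 bases before the start.

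**Figure D1:**
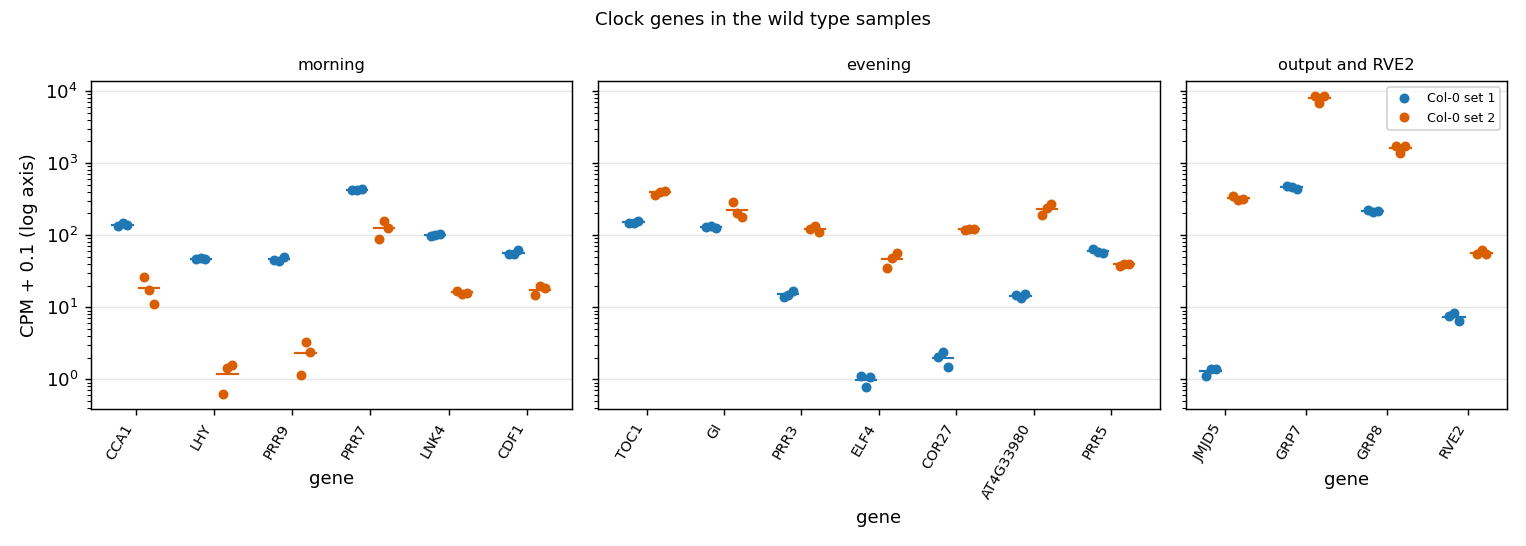
Levels of 17 clock and clock output genes in each of the 6 wild type samples, as CPM plus 0.1 on a log axis; points are samples and bars are means of 3. The genes of the morning panel, CDF1 of the photoperiod list among them, sit lower in set 2 (orange) than in set 1 (blue). Most evening genes sit higher, with PRR5 the evening gene shown that is lower. RVE2, a morning list gene that was higher, is in the last panel. AT5G52660, a morning gene that was also higher, and TCP21, an evening gene that was lower, are not shown.

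The morning arm of the clock was low in set 2. LHY, a dawn MYB factor (chromosome 1, 33365 to 37871, minus strand), stood at 47.3, 47.3 and 46.7 CPM in set 1 and at 0.526, 1.31 and 1.47 CPM in set 2. All set 2 samples lay far below all set 1 samples, a log2 difference of -5.19 (SE 0.22, edgeR adjusted p = 1.05e-06). Its partner CCA1 (chromosome 2, 19245591 to 19248915, plus strand) stood at 134, 145 and 139 CPM against 26.0, 17.5 and 10.9 CPM, a log2 difference of -3.04 (SE 0.27, adjusted p = 4.09e-05). PRR9, the first of the day's pseudo-response regulators, stood at 44.6, 43.9 and 50.2 CPM in set 1 and 1.05, 3.21 and 2.31 CPM in set 2. It fell by 4.25 on the log2 scale (SE 0.26, adjusted p = 5.65e-06), and 28.6% of its 50-base exon runs also occur in another gene, so its level is uncertain. PRR7, which follows PRR9 in the day, stood at 426, 419 and 439 CPM against 89.6, 157 and 127 CPM and fell by 1.77 (SE 0.19, adjusted p = 0.000106). Of the 10 morning genes tested 8 were lower, with the activator gene RVE8 at -1.97 and LNK4 at -2.66, and 2 were higher: AT5G52660 at 0.69 and RVE2 at 2.97. The median log2 difference of the 10 was -1.87. RVE2, a MYB-like gene of the CCA1 family, stood at 7.43, 8.18 and 6.27 CPM in set 1 and 55.2, 62.9 and 53.8 CPM in set 2, the opposite direction to LHY and CCA1.

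The evening arm was high in set 2, with exceptions. Of 8 evening genes tested 6 were higher and 2 lower, with a median log2 difference of 2.21. ELF4, a subunit of the evening complex that represses PRR9, stood at 1.01, 0.682 and 0.965 CPM in set 1 and at 34.9, 48.1 and 56.2 CPM in set 2 (log2 difference 5.73, SE 0.27, edgeR adjusted p = 1.59e-06). COR27, a cold-induced and clock-controlled regulator, stood at 1.96, 2.33 and 1.37 CPM against 119.6, 123 and 123 CPM (5.98, SE 0.17, adjusted p = 1.83e-07), and its relative AT4G33980 rose by 4.02. The set 2 samples of COR27 lie within a few CPM of each other. TOC1, the evening repressor of CCA1 and LHY, stood at 149, 147 and 157 CPM in set 1 and 364, 399 and 415 CPM in set 2 (1.38, SE 0.10, adjusted p = 1.19e-05). PRR3, which protects TOC1 from breakdown, rose by 3.03 (SE 0.14). GI, a late-day scaffold protein, stood at 130, 133 and 126 CPM against 284, 203 and 179 CPM, highest in set 2 replicate 1 (0.77, SE 0.17, adjusted p = 0.0047; 0.57 without that replicate). The 2 lower evening genes were PRR5, at 64.3, 58.6 and 56.5 CPM against 37.1, 40.2 and 40.2 CPM (-0.61, SE 0.11, adjusted p = 0.00167), and TCP21, a repressor of CCA1, at -2.90. Removal of any 1 sample left 6 evening genes higher and 2 lower. LUX, the DNA-binding subunit of the evening complex, and FKF1, a blue light receptor of the photoperiod pathway, overlap opposite-strand exons in 17.8% and 0.969% of their exon bases and were not tested; LUX stood at 32.1 to 35.8 CPM in set 1 and 114 to 125 CPM in set 2, and FKF1 at 13.9 to 15.5 and 79.2 to 93.3 CPM.

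Among the 86 time-of-day genes tested the log2 differences ran from -5.19 for LHY to 8.07 for JMJD5, a clock output gene. JMJD5, a histone demethylase with an evening peak (chromosome 3, 7275645 to 7278420, plus strand), stood at 1.01, 1.31 and 1.29 CPM in set 1 and 349, 311 and 315 CPM in set 2, a log2 difference of 8.07 (SE 0.15, edgeR adjusted p = 7.64e-08). GRP7, an RNA-binding protein whose mRNA oscillates with an evening peak, stood at 475, 467 and 437 CPM against 8532, 6794 and 8520 CPM (4.11, SE 0.14, adjusted p = 4.03e-07), and its relative GRP8 rose by 2.89. No set 2 sample of these 3 genes came near set 1. The DOF factors CDF1, CDF2 and CDF3, which hold back flowering early in the day, fell by 1.69, 0.91 and 1.45, the growth factors PIF4 and PIF5 by 1.33 and 1.58, and the flowering signal FT by 1.67 (34.2 ± 2.54 against 11.1 ± 2.69 CPM, SD, n = 3). Of 13 photoperiod and output genes 4 were higher and 8 lower, and ZTL, whose mRNA is known to be nearly flat over the day, differed by 0.15 and was not called (adjusted p = 0.47).

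The evening element was found in the 300-base windows (250 before to 50 after the start, both strands) of 4 of the 8 tested evening genes and 4 of the 13 photoperiod and output genes, against 3.18% of all 12649 promoters read. It was found in 4.07% of the promoters of genes at least 2-fold higher in set 2, in 3.44% of those at least 2-fold lower and in 7 of 69 of those at least 16-fold higher. The element of PRR9, which fell, begins 27 bases after its start, and that of PRR5, which fell, 187 bases before it. The related CCA1 binding site AAAAATCT was found in 6.76% of the promoters of genes at least 2-fold higher and in 8.36% of all. The G-box CACGTG was found in 6 of the 10 morning genes, CCA1, LHY, PRR9 and PRR7 among them, and in 8.89% of all promoters.

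Starch breakdown and sugar starvation genes, programs of carbon use that run with the day, differed too. SEX4, a phosphatase of starch breakdown, stood at 76.5, 73.9 and 78.3 CPM in set 1 and 254, 243 and 297 CPM in set 2 (log2 difference 1.80, SE 0.11, edgeR adjusted p = 6.03e-06). The glucan kinases PWD and SEX1 rose by 1.46 and 0.75, and 9 of 13 starch breakdown genes were higher. The 1 lower member was BAM1, a stress-responsive beta-amylase, at 524, 548 and 513 CPM against 162, 136 and 165 CPM (-1.77). Of 11 genes of sugar starvation and darkness 9 were lower and 1 higher. SEN1, a classical dark-induced gene, stood at 42.8, 50.1 and 44.2 CPM against 9.72, 6.74 and 5.53 CPM (-2.73, SE 0.21, adjusted p = 1.96e-05), and the trehalose phosphate synthase-like genes TPS9 and TPS10 fell by 2.76 and 1.73. DRM1, a dormancy marker, was the member that rose, by 1.39. Photosynthesis genes had no common direction, with 9 of 22 higher and 7 lower and a median of -0.07, beside 29% higher and 28.9% lower of all genes tested. The Calvin cycle genes SBPASE, GAPA, GAPB and FBA2 rose by 1.52, 1.00, 0.97 and 1.04, while the antenna genes LHCA1, LHCA2 and LHCA3 fell by 0.71, 0.60 and 0.77. RBCS1B (3.30), LHCB2.1 (-2.90) and LHCB2.2 (-2.26) moved further, but 13.8%, 22.7% and 28.1% of their 50-base exon runs are shared with other genes, so their levels are uncertain. Among light signalling genes HY5, a factor of light responses, rose by 1.42 and SPA1, a repressor of light signalling, fell by 2.52, with 4 of 9 members higher and 3 lower, or 6 and 4 of 11 without set 2 replicate 1.

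**Figure D2:**
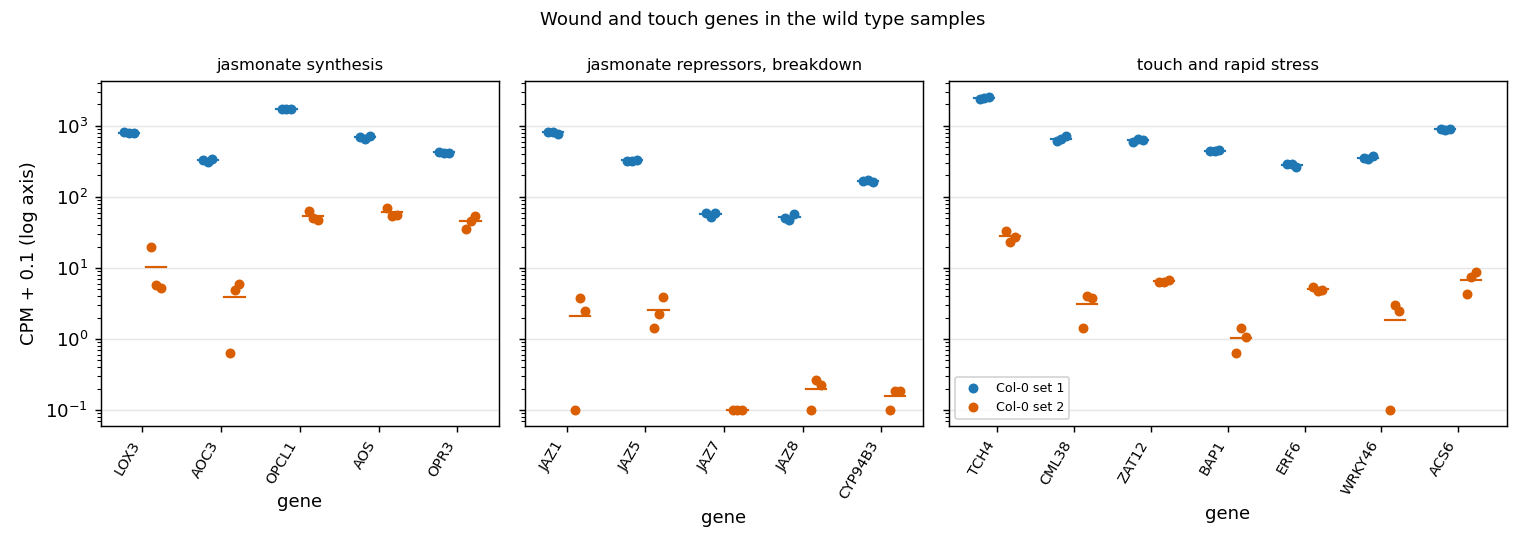
Levels of 17 wound, jasmonate and touch genes in each of the 6 wild type samples, as CPM plus 0.1 on a log axis; points are samples and bars are means of 3. Every set 2 sample (orange) lies below every set 1 sample (blue) for each gene, and JAZ7 has no count in set 2.

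Wound and touch genes were high in set 1 and low in set 2. Of 91 tested members of the 8 wound lists 81 were lower and 5 higher in set 2, with a median log2 difference of -3.93, and 79 were lower by at least 1 on the log2 scale. The lists were chosen with earlier results of these data known, so the counts describe the pattern and are no independent evidence of its direction.

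Among touch and calcium genes all 8 tested were lower. TCH4, a xyloglucan-modifying enzyme of the wall that is known to respond to touch within minutes (chromosome 5, 23307006 to 23308680, minus strand), stood at 2422, 2449 and 2568 CPM in set 1 and at 33.4, 23.1 and 27.1 CPM in set 2 (log2 difference -6.50, SE 0.17, edgeR adjusted p = 1.35e-07). The calmodulin-like gene CML38 stood at 607, 651 and 709 CPM against 1.31, 3.95 and 3.69 CPM (-7.58, SE 0.24, adjusted p = 2.60e-07). CML37, its relative, stood at 472, 474 and 502 CPM against 4.73, 0.329 and 0.587 CPM, with set 2 replicate 1 the highest of set 2. The calcium-dependent kinase gene CPK32 fell by 3.93 and PHI-1, an EXORDIUM-like gene, by 6.12. TCH2 and TCH3, calmodulin-like genes overlapped on the opposite strand in 20.9% and 20.2% of their exon bases, were not tested and stood at 519 to 526 and 520 to 563 CPM in set 1 and at 20.8 to 49.0 and 84.1 to 89.9 CPM in set 2.

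All 27 rapid stress genes tested were lower, with a median log2 difference of -4.92. Apart from PUB22, which had no count in set 2, they ranged from -9.43 to -1.11. The zinc finger gene ZAT12, a general early stress factor, stood at 596, 653 and 635 CPM in set 1 and 6.31, 6.33 and 6.67 CPM in set 2 (-6.60, SE 0.12, edgeR adjusted p = 7.64e-08). ZAT10, a related repressor, stood at 898, 958 and 863 CPM against 48.4, 29.8 and 39.7 CPM (-4.55, SE 0.19). BAP1, an inhibitor of cell death, stood at 444, 442 and 457 CPM against 0.526, 1.31 and 0.964 CPM (-8.75, SE 0.18), and CAF1A, a subunit of the mRNA deadenylase, at 2612, 2591 and 2507 CPM against 16.8, 19.6 and 24.0 CPM (-6.96, SE 0.17). The set 1 samples of these 4 genes lay close together, and no set 2 sample came near them. The ethylene response factors ERF6, ERF104 and ERF13 fell by 5.86, 3.74 and 9.14, and MYB15, an early cold and defence factor, by 9.43. PUB22, a ubiquitin ligase of the immune response, had 452 counts in set 1 and none in set 2, at least 129-fold lower when 3 counts over the group are taken as the limit. The cold factors CBF1 and CBF2 were counted here as early stress genes and fell by 4.86 and 5.57; 2.48% and 3.95% of their exon runs are shared with other genes.

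All 10 WRKY factors tested were lower, from WRKY46 at -7.33 to WRKY70 at -1.0. WRKY46 stood at 353, 342 and 375 CPM in set 1 and 0, 2.88 and 2.35 CPM in set 2, and WRKY18 at 366, 351 and 397 CPM against 14.4, 23.7 and 22.8 CPM. WRKY40 and WRKY33, defence factors overlapped on the opposite strand in 3.85% and 2.42% of their exon bases, were not tested; WRKY40 stood at 991 to 1056 CPM in set 1 and 0 to 0.419 CPM in set 2, and WRKY33 at 1461 to 1483 and 16.6 to 21.8 CPM. The ethylene synthesis gene ACS6 stood at 896, 870 and 896 CPM against 4.21, 7.32 and 8.55 CPM (-6.93, SE 0.21, edgeR adjusted p = 2.03e-07), and 5 of 6 ethylene genes were lower and 1 higher.

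Jasmonate synthesis was low from its first steps. LOX3, a plastid lipoxygenase that starts the pathway, stood at 829, 782 and 798 CPM in set 1 and 19.4, 5.67 and 5.12 CPM in set 2 (log2 difference -6.62, SE 0.46, edgeR adjusted p = 1.22e-05). LOX4, its close relative, fell by 6.83. AOS, the allene oxide synthase, stood at 694, 646 and 715 CPM against 70.2, 54.3 and 56.0 CPM (-3.52, SE 0.13). AOC3, an allene oxide cyclase, stood at 326, 312 and 342 CPM against 0.526, 4.85 and 5.83 CPM (-6.14, SE 0.35), and the peroxisomal genes OPR3 and OPCL1 fell by 3.20 and 5.03. Of 13 synthesis genes 10 were lower and 2 higher, the latter AOC4 (0.51) and JAR1 (0.41), which conjugates jasmonate to isoleucine. LOX2, the leaf wound lipoxygenase, was low in both sets, at 3.22 to 4.82 and 1.05 to 2.01 CPM, and its call (-1.24, SE 0.37, adjusted p = 0.021) was lost without set 1 replicate 1 or 2 (adjusted p = 0.11 and 0.093).

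The JAZ repressors, which jasmonate itself induces, were low as well. JAZ1 stood at 822, 827 and 778 CPM in set 1 and 0, 3.70 and 2.35 CPM in set 2 (log2 difference -8.34, SE 0.40, edgeR adjusted p = 1.71e-06). JAZ7 (chromosome 2, 14573030 to 14573952, plus strand) stood at 59.3, 52.6 and 58.6 CPM in set 1 and had no count in set 2, at least 754-fold lower by the limit of 3 counts over the group. JAZ5, JAZ6 and JAZ9 fell by 6.82, 4.26 and 2.80. JAZ4 rose by 1.63, and JAZ11 did not pass the test (-0.0024, adjusted p = 0.997). Of 12 signalling genes 9 were lower and 1 higher, or 9 and 3 without set 2 replicate 1. CYP94B3, which hydroxylates the active hormone, had 3 counts in all of set 2, and its ratio of set 1 to set 2 was 2237 with a counting interval of 765 to 10850 (95%, exact, counting error only). The jasmonate oxidase genes AT5G05600 and JRG21 fell by 6.53 and 5.82, and 8 of 9 breakdown genes were lower and none higher. Among outputs the storage protein gene VSP2 fell by 2.16 and the tyrosine aminotransferase gene TAT3 by 4.62, while ORA59, an ethylene and jasmonate factor, rose by 2.1. VSP1 missed the threshold (-1.57, adjusted p = 0.056) and passed it without set 2 replicate 1 (-1.17, adjusted p = 0.000602); its reads may be split with VSP2.

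The rapid stress response element CGCGTT was found in 8.79% of the promoters of genes at least 2-fold lower in set 2 and in 60 of 338 of those at least 16-fold lower (17.8%), against 3.88% of all promoters read and 2.32% of genes at least 2-fold higher. No promoter of the 69 genes at least 16-fold higher held it, which allows a share of up to 4.35%. By list, it was found in 1 of the 27 rapid stress genes (3.7%), in 2 of the 8 touch and calcium genes and in at most 1 gene of each other wound list. The W-box TTGACC, the known site of WRKY factors, was found in 16.7% and 23.4% of the promoters of genes at least 2-fold and 16-fold lower, and in 12.2% and 13 of 69 (18.8%) of those at least 2-fold and 16-fold higher, against 14.3% of all, so both groups of 16-fold changes stood above the share of all. The heat shock element GAANNTTC was found in 13.1% and 18.9% of the lower genes and in 10.4% and 6 of 69 (8.7%) of the higher, against 11.2% of all. The G-box was found in 10.1% and 14.5% of the lower genes and in 8.14% and 7 of 69 (10.1%) of the higher. A match says only that the letters are there.

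**Figure D3:**
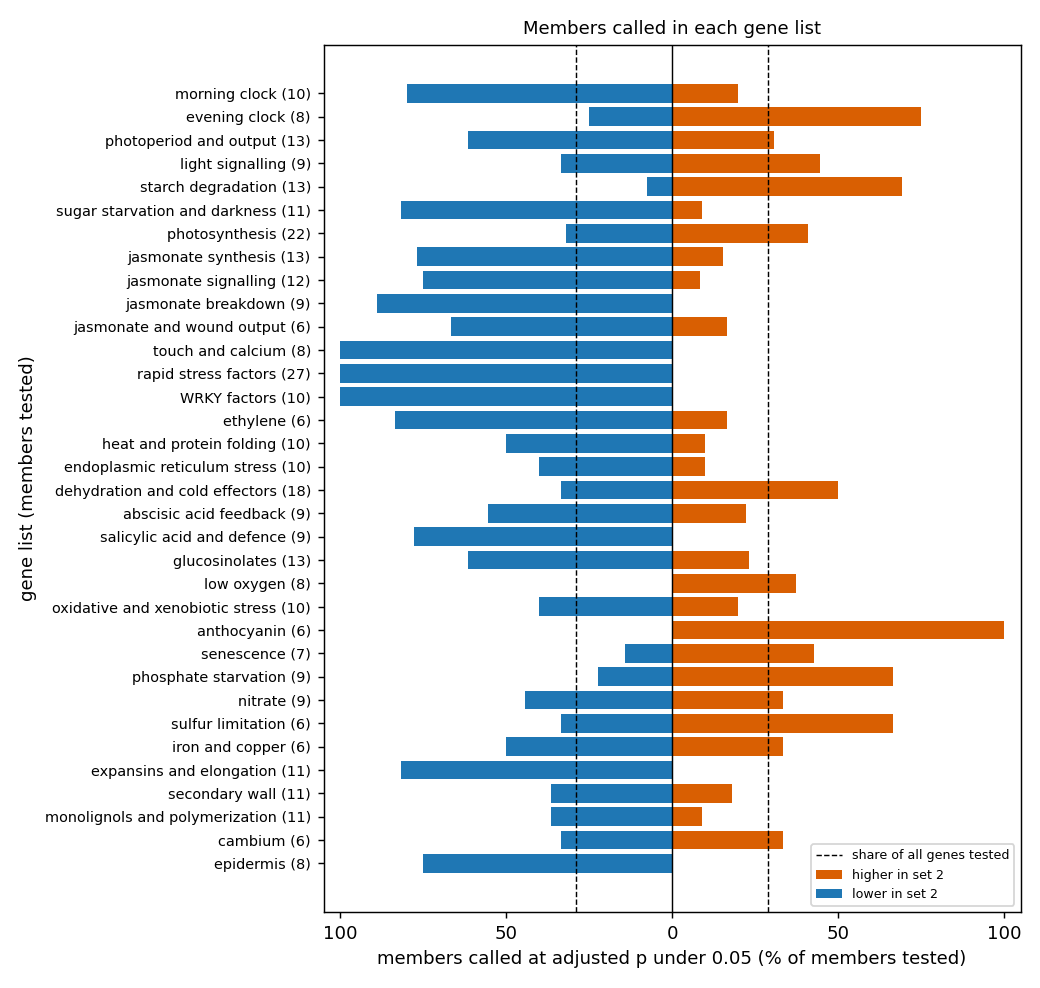
Share of tested members called higher (orange, right) or lower (blue, left) in set 2 for each list with at least 6 tested members, in percent of the members tested, with dashed lines at the shares of all genes tested (29% higher, 28.9% lower). Touch, rapid stress and WRKY lists are all lower and the anthocyanin list is all higher.

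Cold and dehydration effectors split. COR15A, a chloroplast protein that protects membranes during freezing, stood at 8.03, 7.38 and 7.48 CPM in set 1 and 88.6, 113 and 136 CPM in set 2 (log2 difference 3.89, SE 0.18, edgeR adjusted p = 1.54e-06). RD29A, a classical dehydration gene, stood at 343, 392 and 372 CPM against 1823, 1696 and 2045 CPM (2.33, SE 0.12), and the membrane protein gene COR413-PM1 at 77.4, 81.1 and 78.5 CPM against 408, 407 and 399 CPM (2.36, SE 0.09). KIN2 rose by 4.18, with 1.43% of its exon runs shared with another gene, while its neighbour KIN1 was not called (0.76, adjusted p = 0.18) and passed only without set 2 replicate 1 (1.07, adjusted p = 0.00158). In the other direction the dehydrin gene ERD10 fell by 1.12, the galactinol synthase gene GOLS2 by 1.28 and RD26, an abscisic acid-responsive NAC factor, by 1.52. Of 18 members 9 were higher and 6 lower, with a median of 0.72, and without set 2 replicate 1 it was 8 and 7 of 16. The core CCGAC was found in 10 of the 18 promoters and in 16% of all. The factors CBF1 and CBF2, which bind it, were lower in set 2 while COR15A and RD29A were higher.

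Of 9 abscisic acid genes tested 5 were lower and 2 higher, with a median log2 difference of -0.49. NCED3, the rate-limiting enzyme of abscisic acid synthesis, stood at 51.0, 49.6 and 55.5 CPM in set 1 and 8.41, 8.63 and 7.97 CPM in set 2 (log2 difference -2.65, SE 0.13, edgeR adjusted p = 2.02e-06). CYP707A3, which breaks the hormone down, stood at 891, 868 and 945 CPM against 14.98, 12.7 and 12.6 CPM (-6.10, SE 0.13). In the other direction the phosphatase gene HAI1 rose by 1.19.

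Defence genes of salicylic acid were low in set 2 or did not pass the test. CBP60G, a factor that switches on salicylic acid synthesis, stood at 205, 199 and 198 CPM in set 1 and 2.37, 4.77 and 2.68 CPM in set 2 (log2 difference -5.89, SE 0.22, edgeR adjusted p = 5.53e-07). ICS1, the synthesis enzyme, fell by 1.55, the glucanase gene PR2 by 2.96 and the glutaredoxin gene GRX480 by 7.73, and 7 of 9 members were lower and none higher. PR1, the usual late marker, was below the level tested, at 1.90 to 2.22 CPM in set 1 and 4.73, 0.0822 and 0.294 CPM in set 2.

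Heat and folding genes went both ways. HSP70 (0.36, edgeR adjusted p = 0.19) and HSP90.1 (-0.66, adjusted p = 0.063) did not pass the test, the heat factor gene HSFA2 fell by 2.24 from 7.33 to 9.57 CPM in set 1 to 1.13 to 3.68 CPM in set 2, and the constitutive chaperone gene HSC70-1 rose by 1.22. HSP90.1 passed without set 2 replicate 1 (-0.44, adjusted p = 0.046) or replicate 3 (-1.04, adjusted p = 0.00593). Of 10 heat and folding genes 5 were lower and 1 higher, or 6 and 2 without set 2 replicate 1. In the unfolded protein response BIP3 and BZIP60 fell by 3.34 and 1.80, and 5 of 10 members were not called.

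Genes of the anthocyanin pathway were higher in set 2 and stood at 2.80 CPM or less in every set 1 sample. DFR, which makes the colourless precursors (chromosome 5, 17164093 to 17166032, minus strand), stood at 0.654, 0 and 0.322 CPM in set 1 and 59.4, 69.0 and 62.5 CPM in set 2 (log2 difference 7.6, SE 0.46, edgeR adjusted p = 5.69e-06). LDOX, the next enzyme, stood at 0.416, 0.455 and 0.0804 CPM against 77.8, 54.6 and 66.4 CPM (7.57, SE 0.32), and F3'H, which adds a hydroxyl group to the ring, at 2.80, 1.99 and 2.74 CPM against 79.1, 42.3 and 48.6 CPM (4.48, SE 0.30). The MYB activator gene MYB90 had no count in set 1 and 357 in set 2, at least 155-fold higher by the limit of 3 counts over the group. TT8, its helix-loop-helix partner, had 3 counts in set 1, and its ratio of set 2 to set 1 was 100.4 (counting interval 34.0 to 490.2). UF3GT, a glycosyltransferase of the pathway, stood at 0.0568 to 0.0804 CPM in set 1 and 33.4, 9.21 and 16.2 CPM in set 2. All 6 members tested were higher, with a median of 7.58, or 7.42 with MYB90 at its bound, and the count stayed at 6 when any 1 sample was left out.

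**Figure D4:**
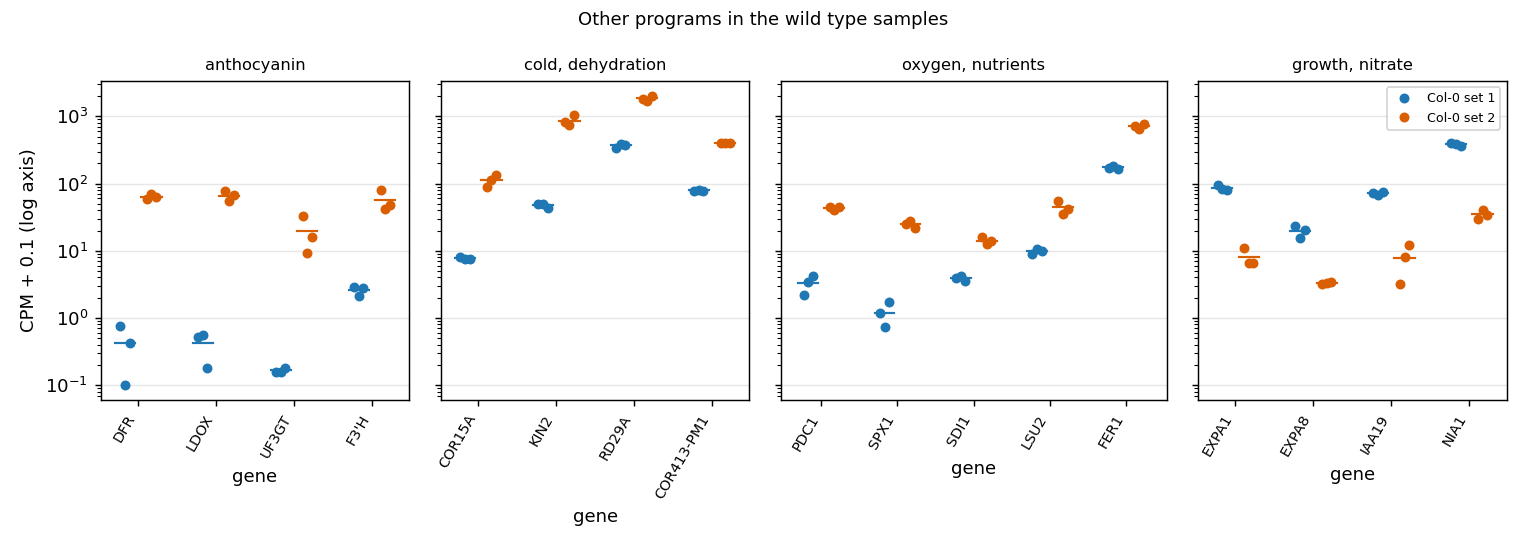
Levels of 17 anthocyanin, cold, low oxygen, nutrient and growth genes in each of the 6 wild type samples, as CPM plus 0.1 on a log axis; points are samples and bars are means of 3. Set 2 (orange) lies above set 1 (blue) for all but the last 4 genes, EXPA1, EXPA8, IAA19 and NIA1. Members of the cold, phosphate, sulfur, and iron and copper lists that were lower in set 2 are not shown, nor are nitrate genes that were higher. Most low oxygen genes were not called.

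Beyond the lists, the largest rises and falls with a mean of at least 5 CPM and no overlap between the sets were drawn from the nuclear genes that RefSeq lists as protein-coding, 8 in each direction. AT5MAT, which adds malonate to anthocyanins, had no count in set 1 and stood at 18.7, 9.13 and 13.4 CPM in set 2, at least 214-fold higher. FACT, a fatty alcohol caffeoyl transferase, stood at 0, 0 and 0.0804 CPM against 13.1, 10.7 and 6.71 CPM, and the lipase-like gene AT1G74460 at 0, 0 and 0.0804 CPM against 10.8, 9.54 and 10.5 CPM. AT1G07050, a CCT motif gene, stood at 0.357, 0.170 and 0.0804 CPM against 39.2, 67.1 and 77.7 CPM (log2 difference 8.13, SE 0.43, edgeR adjusted p = 2.95e-06). The others were JMJD5, UF3GT, DFR and the Rossmann-fold gene AT2G23910. Folds of genes without counts in set 2 are lower bounds only if such zeros mean at most 3 counts over the group. All 8 falls had no count in any set 2 sample. They were the 3 ERF-type genes AT1G19210 (at least 1552-fold lower), AT5G52020 (925-fold) and AT5G21960 (643-fold), the glycine-rich protein gene AT2G05540 (1024-fold), JAZ7, the glycerol phosphate acyltransferase gene GPAT3 (499-fold), the F-box gene AT1G70390 (at least 357-fold) and AT7SL-1 (1034-fold). AT7SL-1, listed as protein-coding but named as a signal recognition particle RNA, behaved unlike the rest. It stood at 68.0 to 83.9 CPM in set 1 and at 68.35 CPM on average in gpt2-1. Its mean was 0.0540 CPM in HCT-RNAi and 0 CPM in 35S GPT2, and 31.4% of its exon runs are shared with other genes.

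The other lines of the study show whether a level goes with the set. In scaling of all 15 samples, HCT-RNAi stood nearer to set 1 than to set 2 for 1705 of the 1894 genes at least 2-fold higher (90%) and 1924 of the 2037 lower (94.5%), on the scale of log2 of mean CPM plus 0.5. The gpt2-1 libraries stood nearer to set 1 for 97.6% and 96.6%, and 35S GPT2 nearer to set 2 for 90.4% and 92.2%. These lines differ in genotype from their controls and were set side by side with no test. Replicates 2 and 3 of 35S GPT2 were, like set 2, read in a row order inferred from the data. JMJD5 stood at 1.39 CPM in HCT-RNAi and 1.5 CPM in gpt2-1 but at 287 CPM in 35S GPT2, and TCH4 at 2511, 5651 and 8.23 CPM in the same order. ELF4 stood at 1.88, 0.0477 and 57.3 CPM, LHY at 28.6, 112 and 1.2 CPM, JAZ7 at 76.6, 247 and 0.636 CPM and COR15A at 41.0, 3.82 and 138 CPM. For COR15A the HCT-RNAi level lay between the sets and nearer to set 2 on that log2 scale. The gpt2-1 libraries had higher LHY and JAZ7 and lower ELF4 than set 1 itself, so the levels of these genes were not even within the lines grouped with set 1. DFR stood at 15.1 CPM in 35S GPT2, between the levels of the sets and nearer to set 2. FACT and AT1G74460, among the largest rises, did not follow the set. They stood at 0.0742 and 0.903 CPM in 35S GPT2 against 9.66 and 9.73 CPM in set 2, nearer to set 1. The other largest rises stood nearer to set 2 in 35S GPT2.

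**Figure D5:**
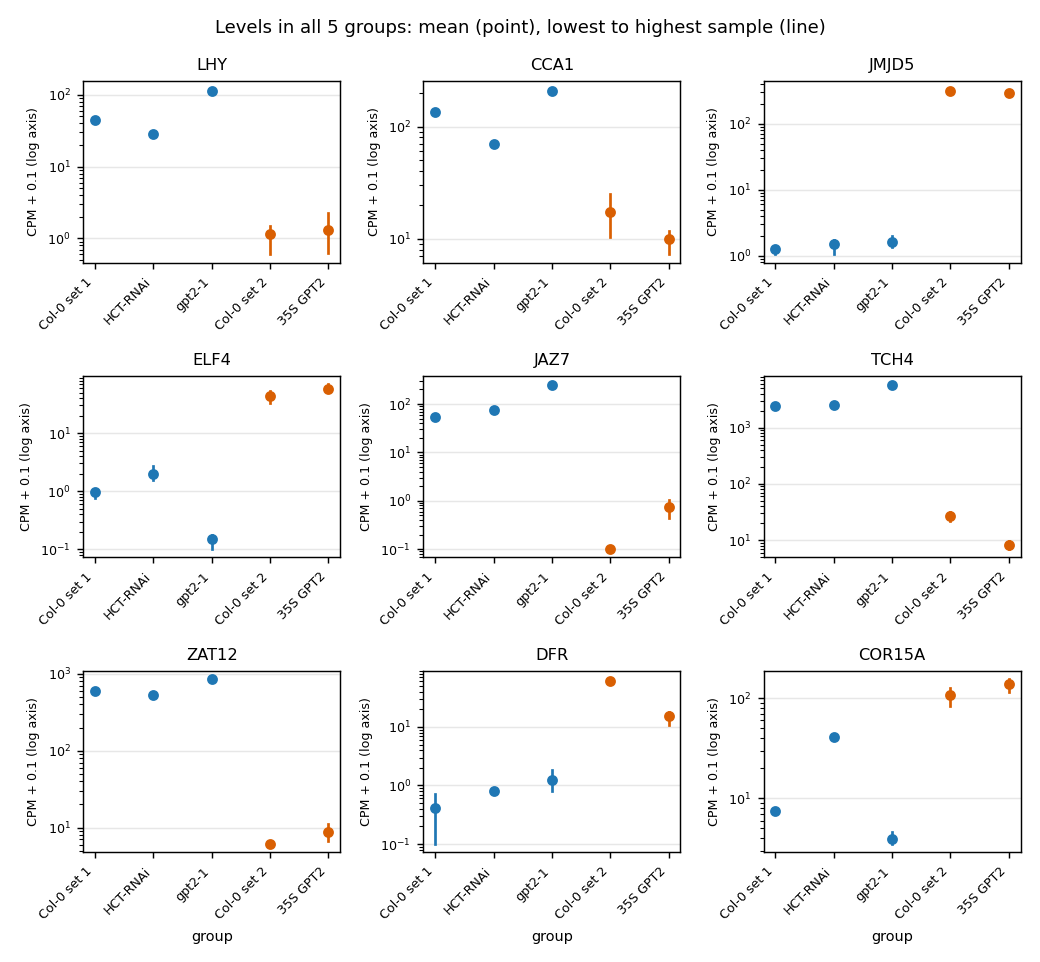
Levels of 9 genes in the 5 groups, as CPM plus 0.1 on a log axis; points are means of 3 samples and lines run from the lowest to the highest sample. Set 1, HCT-RNAi and gpt2-1 (blue) lie on one side and set 2 and 35S GPT2 (orange) on the other for each of the 9 genes. For COR15A, however, HCT-RNAi lies nearer to set 2 than to set 1.

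Genes under opposite-strand exons also differed in level between the sets, and the cause was not tested. Among genes with an opposite-strand exon over at least 50% of their exon bases the median log2 difference was 8.33 (412 genes), and with at least 90% it was 11.2 (167 genes), against -0.05 for the genes without such overlap in the same fit. For the same 412 genes differences from set 1 were also taken without TMM, as log2 of mean CPM plus 0.5. Their median was 3.38 in HCT-RNAi, 0.00 in gpt2-1, 3.99 in set 2 and 3.93 in 35S GPT2. The added 0.5 CPM shrinks differences from very low levels, so these medians are not comparable with the fitted 8.33. HCT-RNAi stood with set 2 at overlapping genes and with set 1 at most genes described above. It also stood with set 2 at AT7SL-1, which has no annotated opposite-strand overlap and was high only in set 1 and gpt2-1. Whether other genes without annotated overlap group in that way was not tested. All results here leave out overlapping genes, except levels that are given as not tested.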

How the data were processed

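The files the authors deposited hold raw gene counts, 1 table for each of the 15 samples, whose 4 sequencing records each count as 1 sample. The submitters' processing notes name STAR, DESeq2 and TAIR10 with no role given; which tool counted, with which strand setting and gene models, was not stated there. A table has 38186 rows, of which 219 named no gene (under 0.002% of the counts in each table) and were left out; all 37967 loci matched RefSeq's TAIR10.1 table. The set 2 counts do not follow their gene labels: Spearman's rho to the first set 1 sample over genes was 0.0971 to 0.108 as labelled and 0.884 to 0.925 when read in the row order of the first 35S GPT2 table, which was used. The counts of 35S GPT2 replicates 2 and 3 were read in that order too (rho 0.1035 and 0.1038 as labelled, 0.918 and 0.9155 as used). This order was inferred from the data. AT1G64190, whose set 2 counts in that order (34, 29 and 25) equal those of GPT2 in set 1, was left out, as were genes with an exon base under an opposite-strand exon, leaving 28908 loci, of which 12650 had a mean of at least 2 CPM.

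The sets were compared with edgeR 4.0.16 (R 4.3.3): TMM scaling, quasi-likelihood F test on the counts, Benjamini-Hochberg adjustment over all genes tested, threshold 0.05. The script was tested on simulated data. CPM are TMM-scaled and relative to counts in genes without overlap; they compare samples, not genes. SE is of the log2 difference, set 2 minus set 1. Where a group held no count, folds are bounds set at 3 counts over the group (0.0640 CPM in set 1, 0.0753 CPM in set 2); such intervals and bounds cover counting error only. Fitted log2 values of genes with few counts in one set depend on edgeR's prior count. Replicates in set 1 and in set 2 differed beyond counting error (chi-square divided by its degrees of freedom, 3.01 to 5.73 and 21.4 to 38.4). Shared sequence is the percent of a gene's 50-base exon runs also found in another gene. The 42 gene lists held 534 genes, of which 111 had opposite-strand overlap and 368 were tested. Members and lists were chosen with earlier results of these data known. Named genes are the marked members of each list, up to 4 others with the smallest p, some further members named after their values were seen, and the 8 largest rises and falls. Alternatives covered scaling, filters, overlap, DESeq2 1.42.0, thinning to the smallest library, row order, a replicate block and each sample left out.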

Additional observations from a re-analysis of the deposited data

How the results depend on the processing

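Counts of genes higher and lower in set 2 stayed within 1.5 times of 3671 and 3661 under every alternative but the gene labels as deposited, which gave 8063 and 8432, with 7858 and 8190 changed at least 2-fold. Keeping genes with opposite-strand overlap raised those at least 2-fold higher from 1894 to 2865. Leaving out each sample gave 2713 to 4665 higher, 2920 to 4560 lower, 1685 to 2006 at least 2-fold higher and 1858 to 2155 at least 2-fold lower. DESeq2 gave 3636 and 3911. Without TMM the counts were 4121 and 3069, and the median of all genes moved from 0.01 to 0.13, so differences are relative to that shift. The same replicate numbers do not pair the samples (correlations of deviations 0.0359, -0.119 and 0.0513), and the fit with the replicate number as a block gave 3093 and 3405. The median log2 difference of the morning clock genes ran from -2.11 to -1.67 with 1 sample left out, and was -6.12 with labels as deposited. That of the evening genes was 2.33 without TMM, 1.73 with overlapping genes kept, -2.96 with labels as deposited and 2.17 to 2.26 with 1 sample left out. That of the wound genes was -3.82 without TMM, -4.03 without same-strand overlap, -3.82 in thinned libraries, -4.20 without genes that share a 50-base run (chosen after seeing the data), -5.34 with labels as deposited and -4.04 to -3.91 with 1 sample left out; that of the anthocyanin genes was 6.56 without genes that share a run and 7.4 to 7.86 with 1 sample left out. Replicate 1 of set 2 reversed ALMT12, to -0.72 without it (up to 0.39 without any other sample). Labels as deposited scramble the genes by construction and reversed 47 named genes (log2 difference): AT1G70390 1.04, RVE2 -9.87, TOC1 -11.63, GI -2.96, PRR3 -10.91, GRP7 -3.88, GRP8 -7.99, HY5 -9.45, SEX1 -3.33, DPE2 -2.65, SEX4 -13.26, PWD -13.73, RBCS1B -2.07, SBPASE -5.45, TAT3 3.37, ACS8 0.79, HSC70-1 -6.97, BIP3 2.21, CRT1 -14.43, RD29A -6.33, COR413-PM1 -13.31, KIN2 -12.58, LBD41 -3.84, PCO1 -5.05, HRA1 2.35, OXI1 1.32, GSTU24 -3.60, NYC1 -14.01, NYE1 -2.98, SPX2 -10.67, NIR1 -1.23, LBD37 -12.24, SDI1 -0.68, LSU2 -10.28, FER1 -14.45, NAS4 -10.28, EXPA8 1.38, IRX9 1.73, HCT -12.00, CCOAOMT1 -7.32, MC9 -0.52, APL 0.88, SUC2 -7.53, WOX4 -11.11, PXY -0.41, PDF1 3.17, VGD1 -7.57. Set 2 replicate 1 had the smallest depth of the 6 samples (3908944 counts in genes without overlap).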

Other observations

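Growth, nutrient, low oxygen and secondary metabolism genes are given here beside the shares of all genes tested (29% higher, 28.9% lower, 58% in all). The secondary wall, lignin and low oxygen lists held no larger share of called members than all genes tested. EXPA1, an expansin that loosens cell walls, stood at 94.7, 82.0 and 80.2 CPM in set 1 and 11.0, 6.49 and 6.41 CPM in set 2 (log2 difference -3.54, SE 0.21, edgeR adjusted p = 4.70e-06). The auxin-responsive gene IAA19 fell by 3.04, and 9 of 11 expansin and elongation genes were lower and none higher. Of 13 glucosinolate genes 8 were lower and 3 higher. CYP83B1, of the indole branch, stood at 750, 779 and 761 CPM against 204, 193 and 187 CPM (-1.97, SE 0.09) and SOT16 fell by 3.42, while the aliphatic regulator gene MYB28 rose by 0.70. Secondary wall genes moved less: the fibre wall regulator gene NST3 fell by 0.95, and 5 of 11 members were not called. Of 11 lignin genes 4 were lower, 1 higher and 6 not called. Among them PAL2 fell by 1.63, LAC4, a laccase of lignin polymerization, by 1.2, and CCOAOMT1 rose by 0.88.

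SPX1, a phosphate sensor gene that low phosphate induces, stood at 1.07, 0.625 and 1.61 CPM in set 1 and 25.2, 27.7 and 21.5 CPM in set 2 (log2 difference 4.52, SE 0.32, edgeR adjusted p = 1.32e-05), and 6 of 9 phosphate genes were higher and 2 lower. Of 6 sulfur limitation genes 4 were higher and 2 lower: SDI1, LSU1 and LSU2 rose by 1.87, 2.29 and 2.17, and the sulfate transporter genes SULTR1;2 and SULTR2;1 fell by 1.6 and 0.88. NIA1, a nitrate reductase gene, stood at 401, 393 and 358 CPM against 30.0, 40.0 and 34.2 CPM (-3.45, SE 0.13), and its relative NIA2 fell by 1.5, while LBD37 and LBD38, nitrate-responsive regulators, rose by 1.45 and 1.27. FER1, an iron storage protein gene, stood at 171, 185 and 167 CPM against 723, 644 and 778 CPM (2.04, SE 0.11). Of 6 iron and copper genes 2 were higher and 3 lower, and of 9 nitrate genes 3 were higher and 4 lower. PDC1, a fermentation enzyme gene of low oxygen, stood at 2.08, 3.29 and 4.1 CPM against 44.7, 40.3 and 44.1 CPM (3.78), yet 5 of 8 low oxygen genes were not called.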
